A study of Homo sapiens with 6 samples.

Results

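The genes described here are 10 genes of intestinal mucus and of the goblet cells that secrete it: the mucins MUC1, MUC2, MUC13 and MUC5AC, the trefoil factors TFF1 and TFF3, the transcription factors SPDEF and ATOH1, the endoplasmic reticulum protein AGR2 and the mucus protein FCGBP. They and the further gene lists below were chosen by name, with earlier results of these data known. Each of the 10 was matched by its Entrez identifier to 1 of the 27434 gene rows of the expression tables. RNA-seq was carried out on HT-29 cells, a human colon adenocarcinoma line that can take on features of absorptive or of mucus-producing cells depending on how it is grown. The cells received a non-targeting siRNA pool (siNT), a pool against the lncRNA HOXA-AS3 (siHOXA-AS3) or a pool against the lncRNA HOXB-AS3 (siHOXB-AS3), each at 10 nM for 48 hours according to the labels, with 2 libraries per condition. The study used these libraries to ask how knockdown (KD) of each lncRNA alters the transcriptome. No label says whether the 2 libraries of a condition came from separate cultures, so the p-values below measure only the spread between these libraries, which may be technical. All 6 libraries came from 1 cell line under 1 culture condition, and no genetic change was introduced.

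Goblet cells are one branch of the secretory lineage of the intestinal epithelium. Absence of Notch signalling allows expression of ATOH1, which commits a progenitor to that lineage, and SPDEF acts after it to drive goblet cell maturation. The mature cell folds very large, cysteine-rich gel-forming mucins in the endoplasmic reticulum with the help of AGR2, decorates them with O-linked glycans in the Golgi, and releases them together with trefoil factors and FCGBP, which become part of the mucus gel. MUC2 is the main gel-forming mucin of the colon, whereas MUC5AC and TFF1 are typical of the stomach surface and appear in colon tumours. MUC1 and MUC13 are not gel-forming but span the cell membrane and form part of the glycocalyx.

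The siRNA guide strands are shown because they are the only designed difference between the conditions. Capitals mark the seed, bases 2 to 8, which can pair with a messenger RNA other than the target. The supplementary list gave 4 distinct single strands for the siHOXA-AS3 pool. These were taken to be the target-sense strands, and their reverse complement is printed here as the guide. For the siHOXB-AS3 pool it gave 3 duplexes with both strands.
siHOXA-AS3 guide 1: uUGUUCGCuauucugucuc
siHOXA-AS3 guide 2: uUGUUCGGcccuuccauug
siHOXA-AS3 guide 3: aGCUUCGCuguccuuuccu
siHOXA-AS3 guide 4: uAACGAGUgcccugucuac
siHOXB-AS3 guide 1: aCUUUGUCucccuuugucguu
siHOXB-AS3 guide 2: uUUCUUUCaugcccgacucuu
siHOXB-AS3 guide 3: uUUCCCUUcaccccuugacuu
In the longest GENCODE 3′ UTR of each gene, the 7-base complement of a siHOXB-AS3 seed was present once in MUC1 and once in SPDEF. Of the 9 goblet cell genes for which a 3′ UTR was matched, MUC2 being the exception, these 2 held such a site, against 45.3% of 11358 tested genes with a 3′ UTR. No complement of a siHOXA-AS3 seed was found in these 9 genes, against 6.90% of the same 11358 genes. The 3′ UTRs of the 9 genes were 164 to 1301 nt long, against a median of 1638.5 nt over the 11358 genes. The shares were not adjusted for this length, so they do not show fewer sites than in other genes.

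The libraries held between 15998518 and 26263938 expected counts, the read estimates per gene that RSEM deposits. HOXB-AS3 was measured at 27.04 and 29.28 FPKM (fragments per kilobase of transcript, scaled to library size) in siNT and at 6.05 and 7.96 in siHOXB-AS3, a log2 fold change of -1.96 ± 0.25 (SE; adjusted p = 0.0678, edgeR fit of all 6 libraries; 8.79e-07 in a fit of the 4 libraries compared). HOXA-AS3 was weakly expressed, at 0.38 and 0.3 FPKM in siNT and at 0.13 and 0.19 in siHOXA-AS3, a log2 fold change of -1.09 ± 0.40 (adjusted p = 0.711). The 2 siHOXA-AS3 libraries stood apart from each other: the SD of the log2 difference between replicates was 0.726 over all tested genes, against 0.425 for siNT and 0.371 for siHOXB-AS3. Their difference was correlated with transcript GC content (Pearson's r = 0.777 across genes, which are not independent replicates). The same correlation was -0.434 for the siNT pair and 0.155 for the siHOXB-AS3 pair. The edgeR fit of all 6 libraries shares 1 estimate of the spread. Its values are therefore given below next to those of fits without the siHOXA-AS3 libraries or with the GC trend removed. The cells had the profile of colon epithelium, led by KRT18 and LGALS4 (means over the 6 libraries of 2196 and 1171 FPKM), while the absorptive markers FABP2, CA1, CA4, ALPI and MS4A12 and the enteroendocrine markers CHGA, CHGB, NEUROD1, GCG, SCGN and INSL5 were at 0 in every library.

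The 10 genes spanned a wide range of levels in control cells. AGR2, a protein disulphide isomerase needed for mucin folding, had by far the highest level, at 740.12 and 710.91 FPKM in the 2 siNT libraries, and made up 85.5% of the FPKM summed over the 10 genes. MUC13 followed at 56.2 ± 0.60 FPKM (SD, n = 2), then TFF1 at 40.0 ± 1.04, SPDEF at 12.3 ± 1.07 and TFF3 at 7.32 ± 1.92. The gel-forming mucins were low, with MUC5AC at 3.09 ± 0.35 and MUC2 at 2.59 ± 0.93 FPKM, and these neighbours in the order overlapped between their libraries. MUC1 was at 1.02 ± 0.06 FPKM. ATOH1 and FCGBP closed the order at 0.17 ± 0.13 and 0.09 ± 0.03 FPKM and also overlapped.

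**Figure D1:**
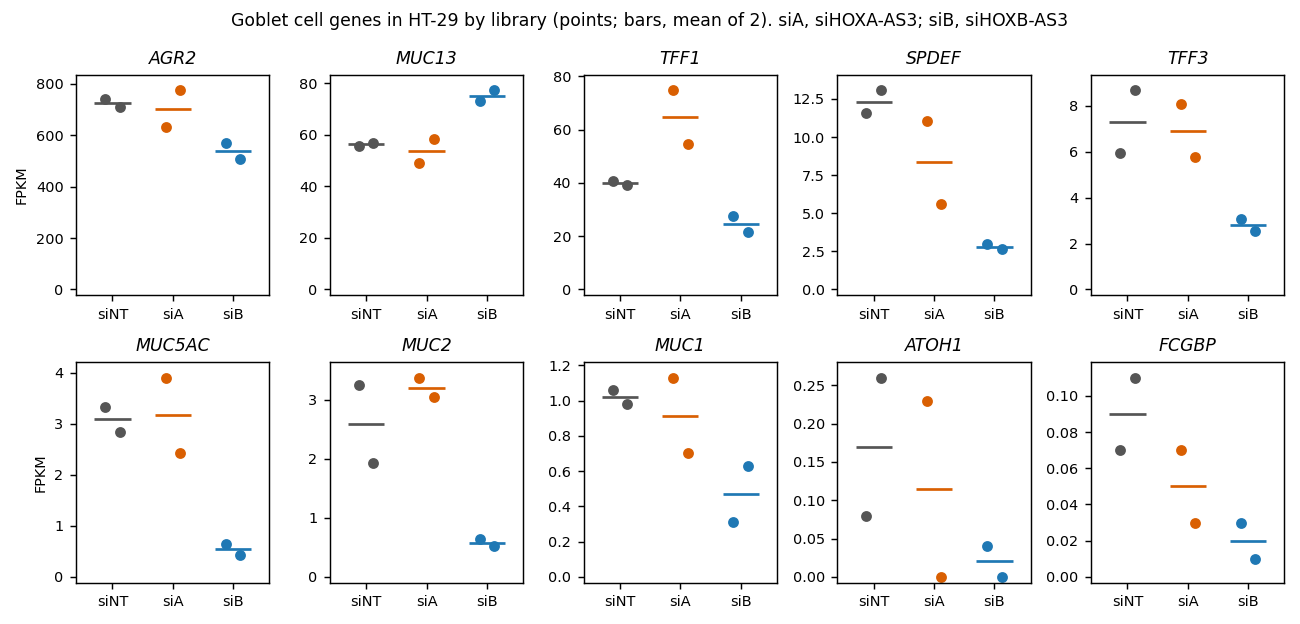
FPKM of each of the 10 genes (vertical axes, each with its own scale) in the 2 libraries of siNT, siHOXA-AS3 and siHOXB-AS3. Points are libraries and bars the mean of 2. For every gene except MUC13 the siHOXB-AS3 points lie under the siNT points, and for MUC13 they lie above.

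In siHOXB-AS3, 8 of the 9 tested genes had both libraries under both siNT libraries, and MUC13 had both above. The largest differences were in the secreted mucins MUC5AC and MUC2, in SPDEF and in the weakly expressed FCGBP, each lower by 4-fold or more. ATOH1, with at most 5 counts in a library, had too few reads to be tested. The 9 tested genes had a median log2 fold change of -1.32, against -0.01 over all 13034 tested genes. Of all tested genes, 30.9% had both siHOXB-AS3 libraries below siNT and 30.9% had both above. In a bulk sample, fewer cells expressing a gene and less RNA per cell cannot be told apart.

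How many of these genes passed an adjusted p of 0.05 depended on the fit. The edgeR fit of all 6 libraries called 0 of 9, where 0.0614% of all genes were called, although 9 of 9 had an unadjusted p below 0.05, against 12.2% of all genes. The same test on the 4 libraries compared called 8 of 9 as lower (12.1% of all genes) and MUC13 as higher (11.2%). DESeq2 called MUC5AC, MUC2, SPDEF and TFF3, all lower (1.75% of all genes), and limma-trend on log2(FPKM + 0.1) called 0 (0.0921%). With the GC trend removed, edgeR called 7 as lower (7.95% of all genes) and MUC13 as higher (9.56%). With each library left out in turn, the log2 fold change ranged from -2.78 to -2.19 for MUC5AC and from -2.43 to -1.70 for MUC2. It ranged from -2.16 to -1.97 for SPDEF, -2.87 to -1.50 for FCGBP and -1.59 to -1.03 for TFF3. For MUC1 it was -1.60 to -0.87, for TFF1 -0.81 to -0.49, for AGR2 -0.46 to -0.31 and for MUC13 0.43 to 0.51. The calls depended on the library left out. Each of the 9 genes kept its sign in all 13 alternatives. As no siHOXB-AS3 library overlapped siNT in any of the 9, a refit of the same libraries could hardly change a sign.

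After HOXA-AS3 KD, 3 of the 9 tested genes had a log2 fold change above 0 and 6 below, from -0.85 for FCGBP to 0.67 for TFF1. The median log2 fold change of the 9 tested genes was -0.06, against 0.01 over all genes. By library-scaled counts (CPM), the libraries did not overlap siNT in TFF1, which was higher (12.5% of all genes had both libraries above), or in SPDEF and FCGBP, which were lower (16.1% of all genes). In FPKM, which is given to 2 decimals, FCGBP was at 0.07 in 1 library of each condition. The edgeR fit of all 6 libraries called 0 of 9 and 0% of all genes, with 1 of 9 at an unadjusted p below 0.05 (6.16% of all genes). DESeq2 (0.391% of all genes) and limma-trend (0.00767%) also called 0 of 9, and edgeR with the GC trend removed called TFF1 and SPDEF (5.83%). Without siHOXA-AS3 replicate 1 the log2 fold change was -1.12 for SPDEF and 0.42 for TFF1. Without siHOXA-AS3 replicate 2 it was -0.15 for SPDEF and 0.89 for TFF1. Both comparisons use the same siNT libraries.

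The direct comparison of the knockdowns uses the siNT libraries only for the estimate of the spread and the filter on low counts. In the fit of all 6 libraries 2 of 9 genes were called, MUC2 and MUC5AC, both lower in siHOXB-AS3 (0.936% of all genes were called as lower and 1.57% in either direction), and 7 of 9 had an unadjusted p below 0.05 (18.4% of all genes). DESeq2 called 5 of 9 as lower (3.83% of all genes), and edgeR on the 4 libraries alone called 0 (0.0156%). With each library left out in turn, the log2 fold change ranged from -2.59 to -2.29 for MUC2 and from -2.83 to -2.12 for MUC5AC. Whether these 2 genes passed depended on the library left out.

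**Figure D2:**
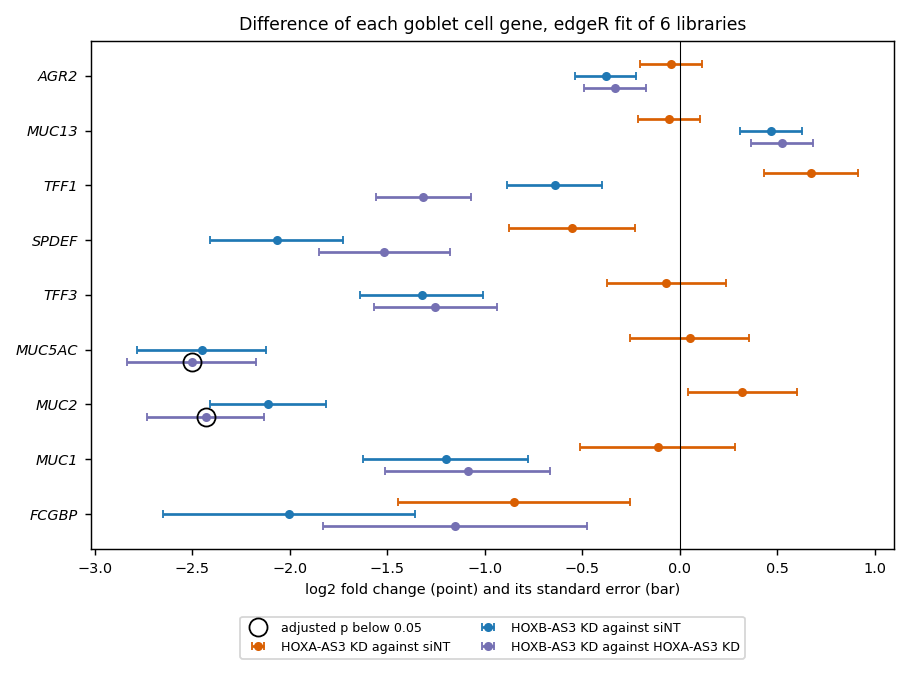
Log2 fold change (horizontal axis) of the 9 tested genes in 3 comparisons, from the edgeR fit of all 6 libraries, with standard errors as bars. Open circles mark an adjusted p below 0.05, reached by MUC5AC and MUC2 in HOXB-AS3 KD against HOXA-AS3 KD.

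Among the gel-forming mucins, MUC5AC was measured at 3.33 and 2.84 FPKM in siNT, at 3.9 and 2.43 in siHOXA-AS3, and at 0.65 and 0.43 in siHOXB-AS3. The siHOXB-AS3 libraries thus lay far below the other 4, while siHOXA-AS3 spanned the range of siNT. Its log2 fold change after HOXB-AS3 KD was -2.45 ± 0.33, or 5.48-fold lower, which ranked 28th from the lowest of 13034 genes. The adjusted p was 0.0774 in the edgeR fit of all 6 libraries, and ranged from 1.43e-09 with DESeq2 to 1 without siHOXB-AS3 replicate 2 over the 13 alternatives, 6 of which passed. After HOXA-AS3 KD it was 0.05 ± 0.30 (adjusted p = 0.999), and between the knockdowns -2.50 ± 0.33 (adjusted p = 0.0316, lost without any 1 of the siNT or siHOXB-AS3 libraries).

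MUC2, the main mucin of the colonic mucus layer, was at 3.24 and 1.93 FPKM in siNT, at 3.37 and 3.04 in siHOXA-AS3 and at 0.64 and 0.52 in siHOXB-AS3. Again both siHOXB-AS3 libraries were lower than every other library, and siHOXA-AS3 overlapped siNT. In expected counts, the 2 siNT libraries held 987 MUC2 reads together and the 2 siHOXB-AS3 libraries 231. The log2 fold change after HOXB-AS3 KD was -2.11 ± 0.30 (4.33-fold lower, 48th from the lowest), with an adjusted p of 0.0790 in the fit of all 6 libraries, 3.65e-07 on the 4 libraries alone and 2.78e-08 with DESeq2, within a range over 13 alternatives up to 1. After HOXA-AS3 KD it was 0.32 ± 0.28 (adjusted p = 0.976). Between the knockdowns it was -2.43 ± 0.30 (adjusted p = 0.0287, lost without siNT replicate 1 or either siHOXB-AS3 library, up to 0.472). MUC2, MUC5AC and the related MUC5B hold tandem repeats and similar cysteine-rich domains, which can make the assignment of reads uncertain. Their expected counts were whole numbers in all 6 libraries, so no reads divided between genes were seen for them. The row for MUC5AC has a length of 5930 nt in the tables and that for MUC2 8622 nt.

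MUC2 and MUC5AC are adjacent coding genes on chromosome 11 in the RefSeq annotation, with MUC5B on the other side of MUC5AC. MUC5B was near the limit of detection, at a mean of 0.043 FPKM over the 6 libraries, and both of its siHOXB-AS3 libraries were below siNT (log2 fold change -1.55 ± 0.47, adjusted p = 0.246). Among the coding neighbours of the other genes, ITGB5 next to MUC13 was at -0.03 ± 0.24 after HOXB-AS3 KD, TSPAN13 next to AGR2 at -0.03 ± 0.28, ILRUN next to SPDEF at 0.06 ± 0.20 and SMARCAD1 next to ATOH1 at -0.02 ± 0.27 (log2 fold changes), and their siHOXB-AS3 and siNT libraries overlapped. ABCG1 next to TFF3 lay below siNT in both libraries (-0.37 ± 0.26, adjusted p = 0.641). FBL and PSMC4 on either side of FCGBP lay above (0.44 ± 0.19 and 0.21 ± 0.16, adjusted p = 0.422 and 0.674). The other tested neighbours had means under 1 FPKM, and their siHOXB-AS3 libraries overlapped siNT. They were THBS3 next to MUC1 (0.04 ± 0.38), HEG1 next to MUC13 (0.66 ± 1.52), TMPRSS3 next to TFF1 (0.67 ± 0.65) and AGR3 next to AGR2 (-0.41 ± 0.54).

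The promoter of MUC2 is shown because MUC2 was among the genes with the largest difference. It comes from the RefSeq promoter table (GRCh38.p14, chr11:1074624-1074923, plus strand) and runs from 250 bases before to 50 bases after the start. Capitals mark matches, on either strand, to CCATAAA (a site of the intestinal CDX factors), CAGATG and CAGCTG (E-boxes, the class of site that ATOH1 and other basic helix-loop-helix factors bind) and GGGCGG (the GC box), the palindrome CAGCTG reading the same on both strands.
MUC2 promoter: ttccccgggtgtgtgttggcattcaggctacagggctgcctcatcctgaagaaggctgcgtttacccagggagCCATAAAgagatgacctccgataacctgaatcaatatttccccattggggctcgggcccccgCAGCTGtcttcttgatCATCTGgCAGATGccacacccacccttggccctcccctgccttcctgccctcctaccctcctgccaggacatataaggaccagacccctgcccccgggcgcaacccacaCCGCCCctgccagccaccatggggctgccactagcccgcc
Counted from the transcription start, the CCATAAA match begins at position -177, the CAGCTG match at -115 and the 2 CAGATG matches at -99 and -92. CCATAAA is present in 2.54% of the 35116 RefSeq promoters of this length, CAGATG in 14.7%, CAGCTG in 17.9% and GGGCGG in 45.0%. These are matches of letters in 1 window and say nothing about binding. Of the 7 promoters of the set in the table (MUC1, MUC2, MUC13, SPDEF, AGR2, FCGBP and ATOH1), MUC2 was the one with a CCATAAA or CAGATG match, and MUC1 the one with TATAAA.

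The membrane mucins differed in sign. MUC13, a mucin of the apical membrane, was at 55.78 and 56.63 FPKM in siNT, at 49.16 and 58.2 in siHOXA-AS3 and at 73.16 and 77.15 in siHOXB-AS3. It was the only one of the 10 genes with both siHOXB-AS3 libraries above the 4 others. Its log2 fold change was 0.47 ± 0.16 after HOXB-AS3 KD (1.38-fold; adjusted p = 0.294 in the fit of all 6 libraries, 0.000856 on the 4 libraries alone, 0.372 with DESeq2, up to 1 over the alternatives), -0.06 ± 0.16 after HOXA-AS3 KD, and 0.52 ± 0.16 between the knockdowns (adjusted p = 0.150). MUC1, a signalling mucin often overproduced in carcinomas, was at 1.06 and 0.98 FPKM in siNT, 1.13 and 0.7 in siHOXA-AS3 and 0.31 and 0.63 in siHOXB-AS3. Its siHOXB-AS3 libraries were the lowest of the 6, but replicate 2 was close to the lower siHOXA-AS3 library, and they rested on 13 and 19 counts. The log2 fold change after HOXB-AS3 KD was -1.20 ± 0.42 (adjusted p = 0.310; 0.0353 on the 4 libraries alone; 0.549 with DESeq2).

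The trefoil factors, small peptides that are co-secreted with mucins and promote repair of the epithelium, were both lowest in siHOXB-AS3. TFF1 was at 40.76 and 39.29 FPKM in siNT, at 74.67 and 54.68 in siHOXA-AS3 and at 27.73 and 21.72 in siHOXB-AS3. The 3 conditions did not overlap, with siHOXA-AS3 highest and siHOXB-AS3 lowest. The log2 fold change was 0.67 ± 0.24 after HOXA-AS3 KD (adjusted p = 0.700 in the fit of all 6 libraries, 0.0191 with the GC trend removed and 0.623 with DESeq2). With a library left out it ranged from 0.42 to 0.89. After HOXB-AS3 KD it was -0.64 ± 0.24 (adjusted p = 0.346, 0.00842 on the 4 libraries alone and 0.361 with DESeq2). Between the knockdowns it was -1.32 ± 0.24, or 2.49-fold lower in siHOXB-AS3, with an adjusted p of 0.0560 in the fit of all 6 libraries and of 0.000418 with DESeq2. TFF3, the trefoil factor of intestinal goblet cells, was at 5.96 and 8.67 FPKM in siNT, at 8.06 and 5.77 in siHOXA-AS3 and at 3.07 and 2.54 in siHOXB-AS3. Here siHOXA-AS3 overlapped siNT, and siHOXB-AS3 lay below both, with a log2 fold change of -1.32 ± 0.32 against siNT (2.51-fold lower; adjusted p = 0.171 in the fit of all 6 libraries, 0.000604 on the 4 libraries alone, 0.0368 with DESeq2). Between the knockdowns TFF3 was at -1.25 ± 0.32 (adjusted p = 0.108; 0.0294 with DESeq2).

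SPDEF, the ETS factor of goblet cell maturation, was at 11.55 and 13.06 FPKM in siNT, at 11.08 and 5.63 in siHOXA-AS3 and at 2.97 and 2.67 in siHOXB-AS3. Both siHOXB-AS3 libraries were the lowest and close together, while the 2 siHOXA-AS3 libraries differed nearly as much from each other as replicate 2 did from siNT. The log2 fold change after HOXB-AS3 KD was -2.07 ± 0.34, or 4.19-fold lower, 53rd from the lowest of all genes. Its adjusted p was 0.101 in the fit of all 6 libraries, 2.68e-08 on the 4 libraries alone, 8.14e-07 with DESeq2 and 8.53e-05 with the GC trend removed, and reached 1 without siHOXB-AS3 replicate 2. After HOXA-AS3 KD the log2 fold change was -0.55 ± 0.32 (adjusted p = 0.918, and 0.0320 with the GC trend removed). It was -1.12 when siHOXA-AS3 replicate 1 was left out and -0.15 when replicate 2 was. The GC content of SPDEF transcripts, 64.7%, was the highest of the 10 genes, and its part in the gap between the siHOXA-AS3 libraries was not tested. Between the knockdowns the log2 fold change was -1.52 ± 0.34 (adjusted p = 0.0850; 0.000643 with DESeq2). ATOH1, the factor that opens the secretory lineage, had 2 and 4 counts in siNT, 5 and 0 in siHOXA-AS3 and 1 and 0 in siHOXB-AS3. At this depth no difference was detectable for ATOH1, and it was left out of the tests.

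The promoter of SPDEF (GRCh38.p14, chr6:34556280-34556579, minus strand) is shown next to that of MUC13 (GRCh38.p14, chr3:124934702-124935001, minus strand) because both siHOXB-AS3 libraries lay below siNT for SPDEF and above it for MUC13. None of the 6 motifs searched, which were those above and TATAAA and the forkhead letters TGTTTAC, was present in either, so no letters are in capitals.
SPDEF promoter: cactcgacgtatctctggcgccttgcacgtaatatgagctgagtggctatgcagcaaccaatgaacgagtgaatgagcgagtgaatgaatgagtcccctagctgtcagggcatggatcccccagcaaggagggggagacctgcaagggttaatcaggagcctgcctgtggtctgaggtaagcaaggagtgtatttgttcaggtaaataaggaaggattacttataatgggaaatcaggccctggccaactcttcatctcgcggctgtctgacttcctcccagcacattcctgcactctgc
MUC13 promoter: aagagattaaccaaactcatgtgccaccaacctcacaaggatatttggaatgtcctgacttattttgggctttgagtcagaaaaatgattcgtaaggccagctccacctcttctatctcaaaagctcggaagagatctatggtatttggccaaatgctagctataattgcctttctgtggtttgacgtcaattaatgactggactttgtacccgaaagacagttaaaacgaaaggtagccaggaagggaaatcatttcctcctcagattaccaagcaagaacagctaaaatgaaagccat
The GC content of the windows was 52% for SPDEF and 41% for MUC13, against 62% for MUC2. TATAAA was present in 11.5% and TGTTTAC in 3.42% of all promoters.

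AGR2 and FCGBP are the remaining genes of mucin assembly. AGR2 was at 740.12 and 710.91 FPKM in siNT, at 631.38 and 774.54 in siHOXA-AS3 and at 569.38 and 507.32 in siHOXB-AS3. The siHOXB-AS3 libraries were the lowest of the 6 (1.30-fold below siNT, log2 fold change -0.38 ± 0.16; adjusted p = 0.398 in the fit of all 6 libraries, 0.00349 on the 4 libraries alone, 0.620 with DESeq2). This was the smallest difference of the 9 tested genes after HOXB-AS3 KD, and AGR2 rested on the most reads, between 9619 and 16752 counts per library. FCGBP, a large mucus protein that binds the Fc part of IgG, had 30 and 28 counts in siNT, 26 and 7 in siHOXA-AS3 and 12 and 4 in siHOXB-AS3. The log2 fold change after HOXB-AS3 KD was -2.01 ± 0.65, the widest error of the 9 genes (adjusted p = 0.280; 0.00725 on the 4 libraries alone; 0.265 with DESeq2). Between the knockdowns the FCGBP libraries overlapped in FPKM.

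**Figure D3:**
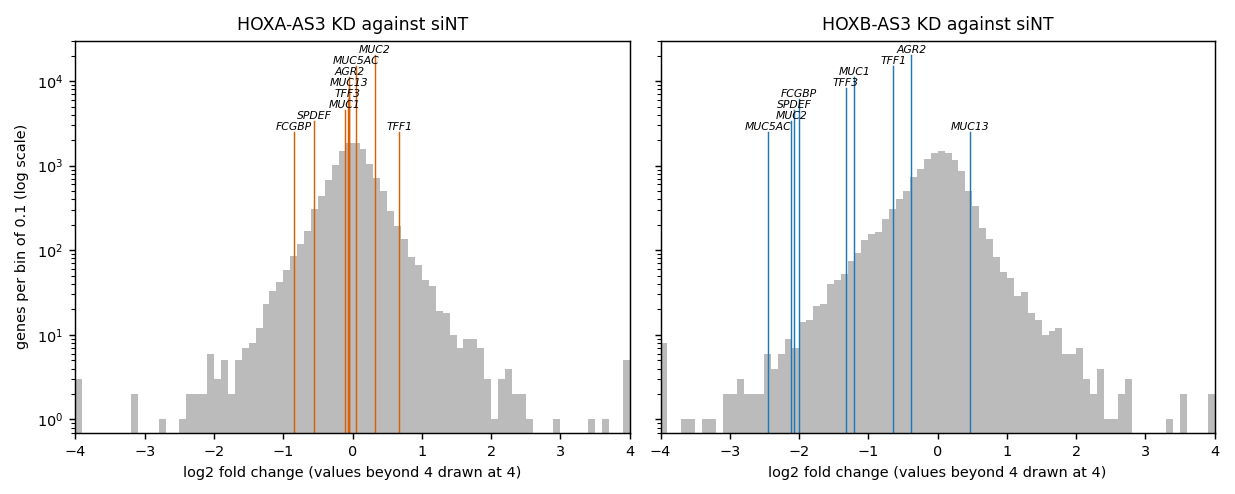
Histograms of the log2 fold changes of all 13034 tested genes (horizontal axis, values beyond 4 drawn at 4; vertical axis, genes per bin of 0.1 on a log scale) with the 9 tested goblet cell genes as labelled lines. In HOXB-AS3 KD against siNT, MUC5AC, MUC2, SPDEF and FCGBP lie at or below -2, as do 0.437% of all genes, and in HOXA-AS3 KD against siNT no goblet cell gene does.

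Other mucins were mixed after HOXB-AS3 KD. Of 17 further mucin genes, 6 were at 0 in every library (MUC7, MUC15, MUC19, MUC22, MUCL1 and EMCN), 8 were tested, and MUC20 and MUC3A had a mean of at least 1 FPKM. After HOXB-AS3 KD the 8 had a median log2 fold change of -0.02, with 4 above and 4 below 0. The edgeR fit of all 6 libraries, DESeq2 and limma-trend each called 0. In the edgeR fit 3 of the 8 reached 0.05 before adjustment (12.2% of all genes). The siHOXB-AS3 libraries lay below siNT in 4 of the 8, MUC5B, MUCL3, MUC4 and MUC17, and above in 2. Of all tested genes, 30.9% lay below and 30.9% above, so these counts set the 8 apart little. On the 4 libraries alone edgeR called MUC3A as higher (adjusted p = 0.000236) and MUCL3 as lower (0.0184), against 11.2% and 12.1% of all genes. With the GC trend removed, MUC3A and MUC20 were called as higher and MUCL3 as lower (9.56% and 7.95% of all genes). MUC20, a membrane-bound mucin, was at 51.69 and 50.93 FPKM in siNT, 40.08 and 22.46 in siHOXA-AS3 and 65.16 and 55.27 in siHOXB-AS3. MUC3A, a membrane mucin of the brush border, was at 5.16 and 5.54 FPKM in siNT, 6.05 and 5.08 in siHOXA-AS3 and 8.53 and 8.26 in siHOXB-AS3. For both genes, as for MUC13, the siHOXB-AS3 libraries lay above siNT, with log2 fold changes of 0.27 ± 0.28 for MUC20 (adjusted p = 0.774) and 0.70 ± 0.19 for MUC3A (adjusted p = 0.198). After HOXA-AS3 KD MUC20 was at -0.68 ± 0.28 (adjusted p = 0.775).

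Further goblet cell genes leaned to lower levels after HOXB-AS3 KD. Of 38 listed genes, 37 were found in the tables and 25 tested, 21 of them with a log2 fold change below 0 and a median of -0.53. The edgeR fit of all 6 libraries and limma-trend called 0 of 25, with 12 at an unadjusted p below 0.05 (12.2% of all genes). On the 4 libraries alone edgeR called 11 (12.1% of all genes were called as lower), and DESeq2 called 4 (1.75%), all lower. RAP1GAP, a GTPase-activating protein, was at 20.08 and 20.88 FPKM in siNT and at 7.7 and 7.06 in siHOXB-AS3 (log2 fold change -1.43 ± 0.29, adjusted p = 0.122). CREB3L1, a membrane-bound transcription factor of secretory cells, was at 31.83 and 28.8 FPKM in siNT and 14.79 and 12.44 in siHOXB-AS3 (-1.11 ± 0.19, adjusted p = 0.101). SERPINA1, the protease inhibitor alpha-1-antitrypsin, was at 22.38 and 25.06 FPKM in siNT and 11.43 and 10.05 in siHOXB-AS3 (-1.09 ± 0.21, adjusted p = 0.114). These 3 genes were chosen for the largest differences among those with a mean of at least 1 FPKM and no overlap with siNT. The lack of overlap was thus a condition of the choice. Of all tested genes, 30.9% lay below siNT in both siHOXB-AS3 libraries. CREB3L1 and SERPINA1 passed in the direct comparison of the knockdowns, with log2 fold changes of -1.24 ± 0.19 (adjusted p = 0.0391) and -1.69 ± 0.21 (adjusted p = 0.0287). These calls, like those of ST3GAL1 and LFNG below, were lost without any 1 of the siNT or siHOXB-AS3 libraries, with adjusted p-values up to 0.538 and 0.483. With the GC trend removed edgeR called 10 as lower (7.95%) and 0 as higher (9.56%). After HOXA-AS3 KD the list had a median of -0.06, and the edgeR fit of all 6 libraries and limma-trend called 0 of 25. With the GC trend removed edgeR called 2 as higher and 3 as lower there (5.83% of all genes in either direction). At an unadjusted p below 0.05 there were 5 (6.16% of all genes), and DESeq2 called 1 (0.391%). Among those with a mean of at least 1 FPKM and no overlap with siNT, the furthest from siNT there were KLK1, a kallikrein protease, at 1.26 ± 0.39 (adjusted p = 0.641), SPINK1, a trypsin inhibitor, at -0.87 ± 0.17 (adjusted p = 0.465; 0.0439 with DESeq2) and SERPINA1 at 0.60 ± 0.21 (adjusted p = 0.681).

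The enzymes that build O-linked glycans on mucins were mixed. Of 31 listed enzymes 26 were tested, 17 below and 9 above 0 after HOXB-AS3 KD (median log2 fold change -0.28), and the median after HOXA-AS3 KD was 0.15. The edgeR fit of all 6 libraries and limma-trend called 0 in either comparison with siNT. Before adjustment 5 reached 0.05 after HOXB-AS3 KD (12.2% of all genes) and 3 after HOXA-AS3 KD (6.16%). DESeq2 called 1 after HOXB-AS3 KD, GALNT5, which was higher (118 of 12195 genes were called as higher). On the 4 libraries alone edgeR called 8 as lower (12.1% of all genes) and 4 as higher (11.2%). With the GC trend removed it called 5 as lower (7.95%) and 3 as higher (9.56%) after HOXB-AS3 KD. After HOXA-AS3 KD it then called 2 as higher and 0 as lower (5.83% of all genes in either direction). GALNT5, which attaches the first sugar, was at 1.54 and 1.41 FPKM in siNT, 2.73 and 3.27 in siHOXA-AS3 and 3.23 and 2.91 in siHOXB-AS3, above siNT in both knockdowns (2.04-fold and 2.15-fold, adjusted p = 0.514 and 0.133). ST3GAL1, which caps the core disaccharide with sialic acid, was at 38.97 and 41.64 FPKM in siNT, 73.74 and 57.98 in siHOXA-AS3 and 25.13 and 25 in siHOXB-AS3. Its levels thus ran in opposite directions from siNT, and the direct comparison passed at -1.36 ± 0.17 (adjusted p = 0.0287). FUT3, a fucosyltransferase of Lewis antigens, was at -1.15 ± 0.40 after HOXB-AS3 KD (adjusted p = 0.309), and GALNT12 at -0.47 ± 0.19 after HOXA-AS3 KD (adjusted p = 0.762).

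Among 38 regulators of the secretory lineage, including Notch pathway genes and intestinal transcription factors, 28 were tested, and their median log2 fold change was -0.25 in siHOXB-AS3 against siNT and 0.07 in siHOXA-AS3. In both comparisons with siNT, edgeR on all 6 libraries and limma-trend called 0. At an unadjusted p below 0.05 there were 6 after HOXB-AS3 KD (12.2% of all genes) and 4 after HOXA-AS3 KD (6.16%). DESeq2 called 2 as higher and 1 as lower after HOXB-AS3 KD (118 of 12195 genes were higher and 1.75% lower). After HOXA-AS3 KD it called 0 (0.391%). On the 4 libraries alone edgeR called 6 as lower (12.1% of all genes) and 3 as higher (11.2%) after HOXB-AS3 KD. With the GC trend removed it called 4 as lower (7.95%) and 3 as higher (9.56%) there. After HOXA-AS3 KD it then called 2 as lower and 1 as higher (5.83% of all genes in either direction). LFNG, a Fringe enzyme that modifies Notch receptors, was at 12.37 and 14.9 FPKM in siNT, 15.5 and 9.62 in siHOXA-AS3 and 3.17 and 2.23 in siHOXB-AS3. Its difference from siNT after HOXB-AS3 KD, -2.31 ± 0.32 (4.97-fold lower; adjusted p = 0.0774), was within the range of MUC2 and MUC5AC, and that from siHOXA-AS3 passed (-2.17 ± 0.32, adjusted p = 0.0384). HES1, a Notch target that represses ATOH1, was at 30.32 and 27.01 FPKM in siNT and 44.11 and 49.39 in siHOXB-AS3 (0.75 ± 0.19, adjusted p = 0.176; 0.0478 with DESeq2). GATA6, a transcription factor of the gut, was at 20.1 and 18.12 FPKM in siNT and 29.63 and 32.46 in siHOXB-AS3 (0.75 ± 0.17, adjusted p = 0.158; 0.0408 with DESeq2). LFNG, HES1 and GATA6 were chosen in the same way, with no overlap of the siHOXB-AS3 and siNT libraries as a condition. Of all tested genes, 30.9% met it below siNT and 30.9% above. Among the regulators with a mean of at least 1 FPKM and no overlap with siNT, those furthest from siNT after HOXA-AS3 KD were ELF3 at -0.68 ± 0.26 (adjusted p = 0.736), PSEN2 at 0.62 ± 0.32 (adjusted p = 0.878) and MAML2 at -0.59 ± 0.20 (adjusted p = 0.651).

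**Figure D4:**
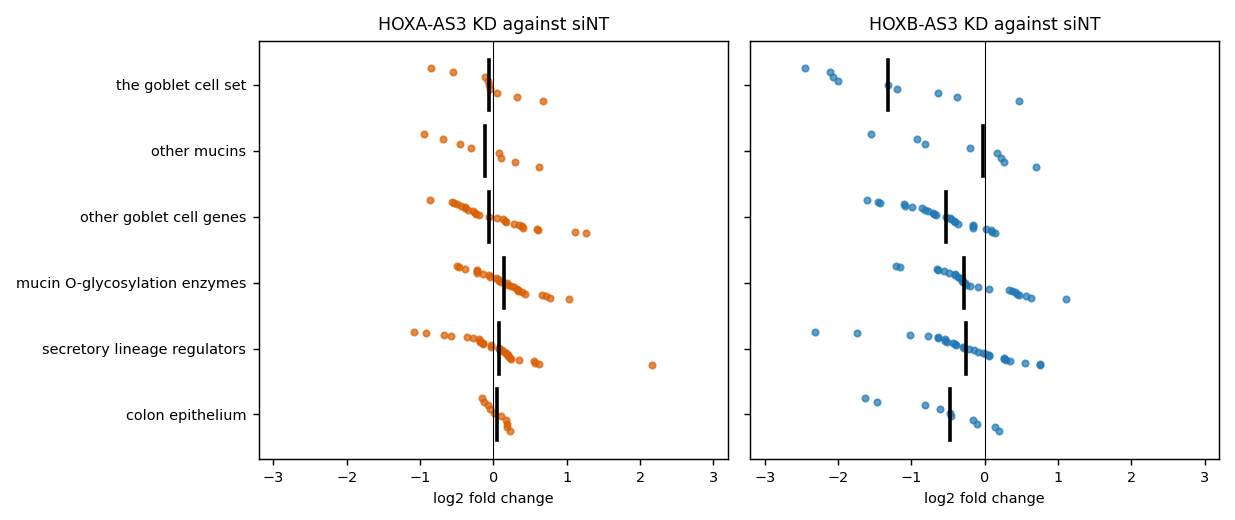
Log2 fold changes (horizontal axes) of the tested genes of 6 lists in each knockdown against siNT. Points are genes and black bars medians. In HOXB-AS3 KD the median of the 9 goblet cell genes is -1.32, that of the other mucins -0.02 and that of the colon epithelium markers -0.47.

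Markers of other states were examined beside these values. Of 10 colon epithelium markers, 8 were below 0 after HOXB-AS3 KD, with a median of -0.47. The adhesion proteins CEACAM5 and CEACAM6, named after their values were seen, passed in the fit of all 6 libraries. CEACAM5 fell by 1.63 ± 0.15 and CEACAM6 fell by 1.46 ± 0.15 on the log2 scale (adjusted p = 0.0492 for both). Both calls held without a siHOXA-AS3 library and were lost without any 1 of the 4 others. Between the knockdowns CEACAM5, CEACAM6 and EPCAM, an adhesion molecule of epithelial cells, were called as lower in siHOXB-AS3, at -1.58 ± 0.15, -1.56 ± 0.15 (adjusted p = 0.0174 for both) and -0.82 ± 0.14 (adjusted p = 0.0471), calls that were likewise lost without any 1 of the siNT or siHOXB-AS3 libraries. EPCAM was at 288.71 and 278.06 FPKM in siNT, 270.27 and 296.12 in siHOXA-AS3 and 158.53 and 153.3 in siHOXB-AS3. The summed level of the list ranged from 4757 to 5108 FPKM in siNT, 4050 to 6018 in siHOXA-AS3 and 4329 to 4378 in siHOXB-AS3. Of 13 absorptive enterocyte markers 5 were at 0 and 2 were tested, and the list summed to at most 1.75 FPKM in any library. CEACAM7 and CA2 led it. The 11 enteroendocrine markers, led by NEUROG3 and PAX4, summed to at most 0.83 FPKM. The tuft markers, led by POU2F3 and AVIL, with DCLK1 at 0, summed to 1.56 to 1.90 FPKM in siNT, 1.23 to 1.40 in siHOXA-AS3 and 0.54 to 0.84 in siHOXB-AS3. LYZ, named as a Paneth marker but broadly expressed in tumour lines, was high throughout (mean 920 FPKM), with DEFA5 and DEFA6 at 0. PLA2G2A was next, at a mean of 0.59 FPKM. The stem cell markers, led by CDCA7 and RGMB, with OLFM4 at 0, summed to 20.6 to 21.8 FPKM in siNT, 18.4 to 19.8 in siHOXA-AS3 and 16.96 to 17.21 in siHOXB-AS3. CDCA7, the largest part of this sum, was at 12.73 and 12.06 FPKM in siNT and 9.21 and 9.02 in siHOXB-AS3. The 4 tested stem markers did not move together after HOXB-AS3 KD, with 3 below 0 and 1 above (log2 fold changes -0.40 to 0.67). Non-epithelial markers summed to at most 1.63 FPKM, led by CD14 and VIM, and COL1A2, DCN, PDGFRB and ALB were at 0. The part of these markers in the values of the goblet cell genes was not tested.

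**Figure D5:**
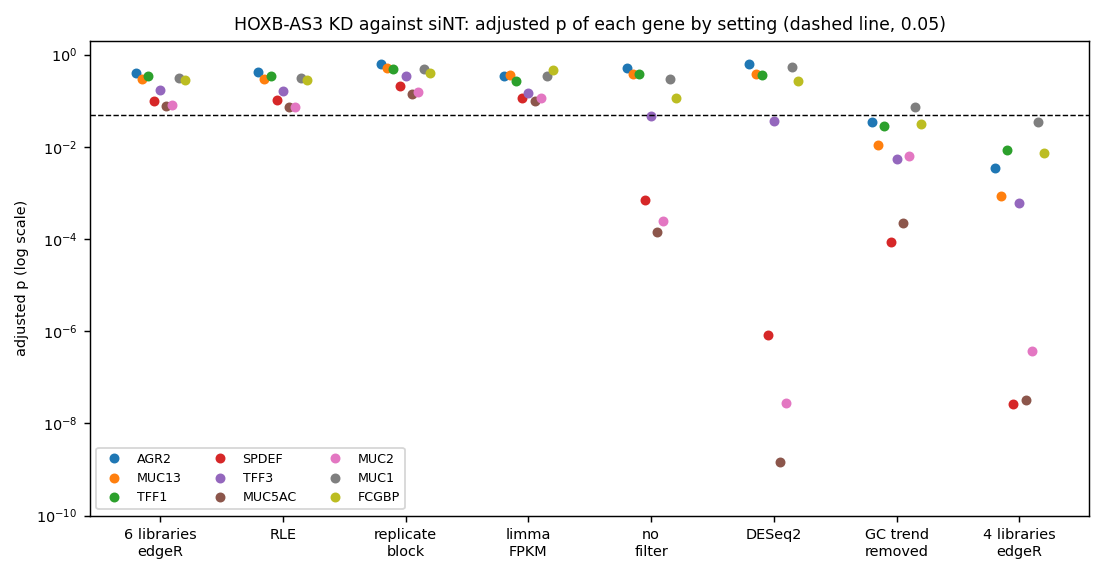
Adjusted p (vertical axis, log scale) of the 9 tested genes in HOXB-AS3 KD against siNT under 8 settings (horizontal axis). Points are genes and the dashed line is 0.05. In the edgeR fit of 6 libraries the lowest value is 0.0774 (MUC5AC), while all 9 genes lie below the line in the fit of 4 libraries.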

How the data were processed

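RNA-seq was measured in 6 HT-29 libraries, prepared from poly(A) RNA with a SENSE mRNA-Seq kit (Lexogen). The labels give RNeasy for extraction and 10 nM siRNA, and the study's methods give another reagent and dose. Per the labels, the authors quantified the reads with RSEM on hg19. For the aligner, the RSEM version and the strandedness of counting, the entry is: not given in the sources used here. The deposited tables hold expected counts (estimated counts), TPM and FPKM per gene row, of which 627 of 27434 join several Entrez IDs, none of them a gene described here. Levels are FPKM, and the deposited TPM values entered no test.

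Expected counts were rounded, and genes were kept by filterByExpr with a minimum count of 10, which left 13034. They were tested with edgeR's quasi-likelihood test 4.0.16 (TMM, robust, R 4.3.3) on all 6 libraries, with Benjamini-Hochberg adjustment over all tested genes and a threshold of 0.05. The SE is the log2 fold change divided by the square root of F. Alternatives were DESeq2 1.42.0, RLE factors, no filter, the 4 libraries compared, a replicate block, limma-trend 3.58.1 on log2(FPKM + 0.1), a GC trend removed and each library left out. Totals ranged from 15998518 to 26263938 counts, and 3 counts corresponded to 0.114 to 0.188 CPM. No pair of libraries agreed within sampling noise (lowest chi-square per degree of freedom 6.77). Rows without a gene symbol held at most 0.0444% of the counts. The genes and lists were chosen with earlier results of these data known. All 10 genes, mucins with a mean of at least 1 FPKM, called genes of the other lists (at most 3 in each direction), the 3 with the largest non-overlapping difference per list and knockdown, and the 2 highest and the absent markers of each list are named. One marker gene is not reported here. The scripts were tested on simulated data. Promoters and gene names come from RefSeq GRCh38.p14, and 3′ UTRs and GC content from GENCODE on GRCh38, a build other than that of the tables.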

Additional observations from a re-analysis of the deposited data

Results flagged for a closer look

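In 2 genes the effects of the knockdowns differed by a test of the difference itself. MUC2 was lower in siHOXB-AS3 than in siHOXA-AS3 by a log2 fold change of -2.43 (adjusted p = 0.0287, edgeR fit of all 6 libraries), with 8 of 13 alternatives past 0.05. MUC5AC was lower by a log2 fold change of -2.50 (adjusted p = 0.0316), with 7 of 13 alternatives past 0.05. Both siHOXB-AS3 libraries were below both siHOXA-AS3 libraries in each gene. The share of all genes with this pattern is not given here, so the pattern adds nothing to the test. Groups of 2 libraries are too small for a check of single libraries that stand apart.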

How the results depend on the processing

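All 9 tested genes kept their sign after HOXB-AS3 KD and between the knockdowns in every alternative run. After HOXB-AS3 KD no library of these genes overlapped siNT, so a refit of the same libraries could hardly change a sign. Between the knockdowns the same held for each gene except FCGBP, whose libraries overlapped. After HOXA-AS3 KD, 9 gene values changed sign, each with 1 library left out. Over the 6 fits without a library, the log2 fold change ranged from -0.20 to 0.091 for AGR2, from -0.48 to 0.16 for MUC1, from -0.18 to 0.062 for MUC13, from -0.0018 to 0.74 for MUC2, from -0.33 to 0.35 for MUC5AC and from -0.33 to 0.22 for TFF3.

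Counts of the goblet cell genes called moved with the setting. For HOXB-AS3 KD against siNT (0 in the edgeR fit of all 6 libraries) they were 4 with DESeq2, 4 without a filter, 8 with the GC trend removed and 9 on the 4 libraries alone, and 0 to 9 with a library left out. For HOXA-AS3 KD (0) they were 2 with the GC trend removed and 0 to 1 with a library left out. Between the knockdowns (2) they were 5 with DESeq2, 5 without a filter, 6 with the GC trend removed, 0 on the 4 libraries alone, and 0 to 8 with a library left out. For the other mucins and the 3 further lists, HOXB-AS3 KD (0) gave 8 with DESeq2, 5 without a filter, 28 with the GC trend removed, 34 on the 4 libraries alone and 0 to 35 with a library left out. HOXA-AS3 KD (0) gave 1 with DESeq2, 11 with the GC trend removed and 0 to 31, and the knockdowns compared (4) gave 12 with DESeq2, 12 without a filter, 35 with the GC trend removed, 0 on the 4 libraries alone and 0 to 42. Over all genes, HOXA-AS3 KD (0 called) gave 49 with DESeq2, 24 without a filter, 1 with limma-trend, 736 with the GC trend removed and 0 to 4031 with a library left out. HOXB-AS3 KD (8) gave 331, 265, 12, 2210 and 0 to 3035 in the same order and 2995 on the 4 libraries alone. The knockdowns compared (204) gave 770, 706, 93, 3810 and 0 to 5027, and 2 on the 4 libraries alone. The cause was not tested.

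No label says whether libraries of the same replicate number belong together. The differences between replicates were correlated at -0.35 for siNT with siHOXA-AS3, -0.14 for siNT with siHOXB-AS3 and 0.15 for both knockdowns. These differences also followed GC content (r = -0.434 for siNT, 0.777 for siHOXA-AS3 and 0.155 for siHOXB-AS3). The correlations between conditions therefore cannot show whether the replicate numbers pair the libraries. With the replicate block, 0, 0 and 10 genes were called for HOXA-AS3 KD, HOXB-AS3 KD and the knockdowns compared, with 0 goblet cell genes and 0 genes of the other lists in the last. A crossed pairing, added after seeing the data, called 14, 225 and 758 genes, of which 4 and 5 were goblet cell genes and 4 and 13 genes of the other lists in the last 2 comparisons. AGR2's share of the summed siNT level was 85.2% to 85.9% with a siNT library left out. Leaving out a library left 1 library in its group, which is assumed to vary like the others. At these depths ATOH1, with 0 to 5 counts a library, could not be tested.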
